A study of Mus musculus with 10 samples.

Results

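The genes Lin28a, Lin28b, Igf2bp1, Igf2bp2, Igf2bp3, Hmga1, Hmga2, Arid3a and Trim71, known together as markers of fetal timing, were followed in mouse nephron progenitors at birth, in midgestation and in culture. These 9 genes were found by name among the non-control probes of the array, where 16 of 55681 probes and 9 of 34607 gene names belonged to them. Gene expression had been measured on 10 single-colour Agilent mouse arrays, 2 in each of 5 groups. All cells came from mice of the Six2-GFP transgenic genotype on a C57BL6J/ICR background, in which green fluorescent protein marks cells that express Six2, a transcription factor that maintains nephron progenitors. P0 progenitors were the GFP-positive cells of newborn (P0) mice, and P0 non-progenitors the GFP-negative cells of that age. E11.5 progenitors were GFP-positive cells at E11.5. The 8-day and 19-day cultures had been started with such E11.5 cells and grown in conditioned medium for that time. Labels place the newborn groups at P0, whereas data names read E19.5. They do not say whether cultures were sorted again or whether replicates came from separate litters or cultures. The p-values therefore measure only the spread between these samples, which may be technical.

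LIN28A and LIN28B are RNA-binding proteins that bind precursors of the let-7 microRNAs and block their maturation. Mature let-7 in turn represses transcripts that include Lin28a and Lin28b, the IGF2BP RNA-binding proteins, the chromatin protein HMGA2, the transcription factor ARID3A and the ubiquitin ligase TRIM71, so that LIN28 and let-7 oppose each other as tissues pass from fetal to later states. In the mouse kidney, forced LIN28B expression is known to prolong the period in which nephrons form. The array measured messenger RNA, and mature let-7 was not analysed here.

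The pairing of let-7 with its targets runs mainly through the seed, bases 2 to 8 of the microRNA. In RefSeq's mouse table (GRCm38.p6), 13 of 1738 mature entries, with 11 names, carry the seed GAGGUAG. They are let-7a, b, c, d, e, f, g, i and k, miR-98 and miR-1961. A selection is shown with the seed in capitals, because the other bases differ between family members while the seed does not.
let-7a: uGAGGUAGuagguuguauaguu
let-7b: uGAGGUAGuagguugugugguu
let-7e: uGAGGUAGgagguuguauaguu
let-7g: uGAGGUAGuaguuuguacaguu
miR-98: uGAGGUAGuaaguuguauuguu

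One Hmga2 probe (A_52_P300730) covers a stretch complementary to the seed. Its window at chr10:119798740-119798769 (mm9, minus strand), read 5′ to 3′ as the transcript, is shown with the 10 bases complementary to bases 2 to 11 of let-7a in capitals.
Hmga2 window: aatcaaaacacaCTACTACCTCttaagtcc
The 7 bases opposite the seed, CTACCTC, occurred in 204 of all 55681 probes (0.366%), read in the sense direction, and in 1 of the 16 probes of the 9 genes. Most of each transcript lies outside the probes, so that the count says nothing about sites elsewhere, and a match is a description, not evidence of repression.

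The Lin28b results rest on a probe (A_52_P532355) at chr10:45140412-45140471 (mm9, minus strand), which the array's annotation places at base 376 of the mRNA. It is shown whole, because this stretch was detected in E11.5 progenitors and in no other group.
Lin28b probe: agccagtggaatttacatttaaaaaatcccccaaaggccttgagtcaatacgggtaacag

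Levels are given as log2 intensity relative to the 75th percentile of the same array, so that 0 is the level below which 75% of spots lie and 1 unit is a doubling. Between 60.4% and 69.8% of spots were well above background, and E11.5 replicates differed most (root mean square difference 1.22 on the log2 scale, against 0.833 to 1.08 in the other groups). The 8 nephron progenitor markers averaged 4.74 and 4.54 in P0 progenitors, 1.92 and 1.61 in P0 non-progenitors, 4.47 and 4.81 in E11.5 progenitors, 2.66 and 2.58 in 8-day and 0.45 and 0.91 in 19-day culture. Eya1, among the 8, was between 9.24 and 9.74 on every array, GFP-negative cells included, so that its probe raises each mean and does not tell the groups apart. Six2 itself was at 4.27 and 4.11 in P0 progenitors, -2.26 and -4.55 in P0 non-progenitors, 4.70 and 4.82 in E11.5 progenitors, 5.21 and 4.61 in 8-day and 1.06 and 2.32 in 19-day culture. The Six2 levels thus followed the sort in fresh cells and were lower at 19 than at 8 days. All fresh cells and 8-day replicate 1 were on slide 1, and 8-day replicate 2 and both 19-day arrays on slide 2.

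**Figure D1:**
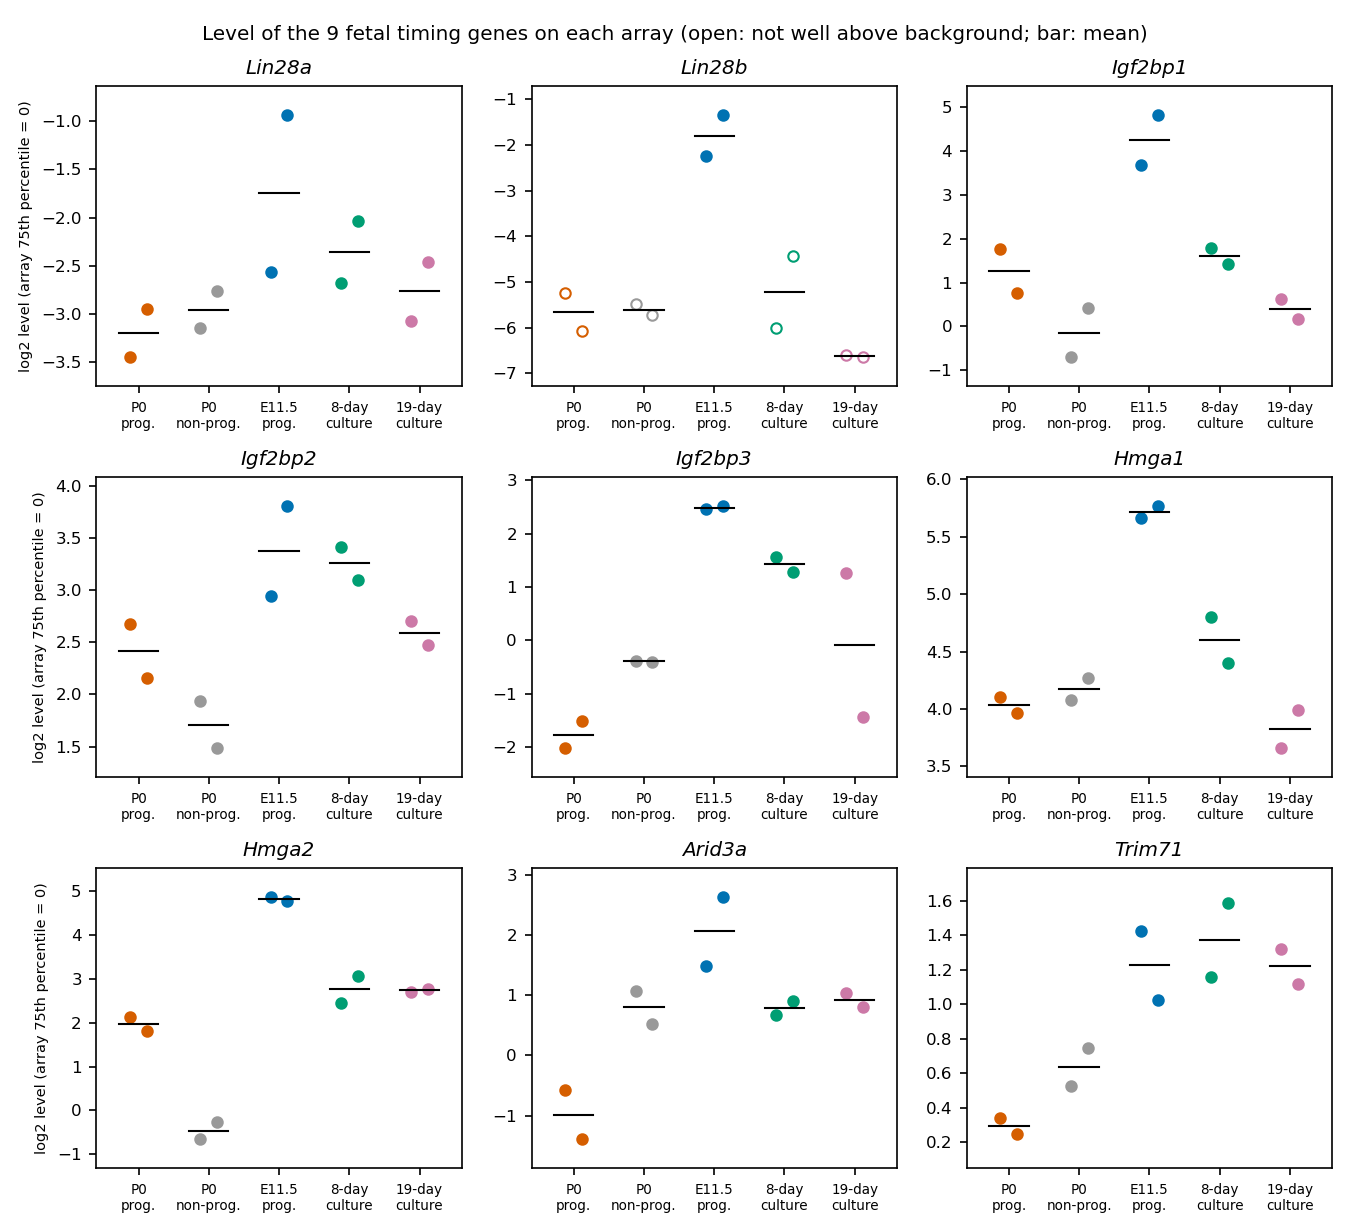
Level of each of the 9 genes on each of the 10 arrays, as log2 intensity relative to the array's 75th percentile (vertical axis, own range per gene), by group, with a bar at the mean of the 2 arrays and open points for values not well above background. E11.5 progenitors have the highest mean for 8 of the 9 genes, and Lin28b is well above background in E11.5 progenitors alone.

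P0 progenitors were compared with E11.5 progenitors, which stand near the beginning of kidney development. All 9 genes had a lower mean in P0 progenitors, and 6 passed the test as lower: Lin28b, Igf2bp1, Igf2bp3, Hmga1, Hmga2 and Arid3a. Of all 26252 genes tested, 3.95% were called, 2.03% as higher and 1.92% as lower. After quantile normalization, 66.1% of the genes called were higher, against 51.4% in the reported setting. Lin28b was detected in E11.5 progenitors alone and entered the test through that group, whereas the other 8 genes were well above background on all 10 arrays. Of these 8, 5 were called lower, and their median log2 difference was -2.27, against -0.12 over all genes tested. In these bulk samples, fewer cells of a type and less RNA per cell cannot be told apart.

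Of the LIN28 pair, Lin28b was at -5.23 and -6.07 in P0 progenitors, neither well above background, against -2.24 and -1.34 in E11.5 progenitors. Both P0 arrays lay below both E11.5 arrays. Its fold is set against a limit for each P0 array, the dimmest signal of any probe that was well above background. This limit is not specific to the Lin28b probe, so that the fold is an approximate minimum. Set against it, Lin28b fell 5.92-fold (fitted log2 difference -3.86 ± 0.63 SE, limma adjusted p = 0.0211, n = 2 arrays a group). Because the filter on dim probes kept Lin28b through its high group, the fit without a filter matters: it gave an adjusted p of 0.0241 (limma). After normexp background correction, whose offset compresses dim signals, the difference was -1.05 (limma adjusted p = 0.0287). Lin28a was measured by 1 probe (chr4:133559245-133559304, mm9, minus strand). It was at -3.45 and -2.95 in P0 progenitors and at -2.56 and -0.94 in E11.5 progenitors. The E11.5 pair spread over more than the gap to the P0 pair, and the difference of -1.45 ± 0.58 did not pass (limma adjusted p = 0.233).

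The IGF2BP proteins bind messenger RNAs, among them Igf2, and set their stability, location and translation. Igf2bp3 had the largest fitted difference of the 9 genes, with -2.03 and -1.52 in P0 progenitors against 2.46 and 2.52 in E11.5 progenitors (probe at chr6:49035710-49035769, mm9, minus strand). It fell 19.1-fold (log2 -4.26 ± 0.74, limma adjusted p = 0.0264). Igf2bp1 was at 1.76 and 0.77 in P0 progenitors and at 3.69 and 4.82 in E11.5 progenitors (probe at chr11:95824526-95824585, mm9, minus strand). It fell 7.93-fold (log2 -2.99 ± 0.53, limma adjusted p = 0.0287), with no overlap between the groups. Igf2bp2 stood apart from these paralogs in size: it was at 2.67 and 2.15 in P0 progenitors and at 2.94 and 3.80 in E11.5 progenitors, a difference of -0.96 ± 0.33 that did not pass (limma adjusted p = 0.175).

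HMGA1 and HMGA2 bind AT-rich DNA and alter chromatin architecture. Hmga2 was at 2.14 and 1.82 in P0 progenitors and at 4.87 and 4.78 in E11.5 progenitors (probe at chr10:119800621-119800680, mm9, minus strand). The replicates lay close together in both groups, and Hmga2 fell 7.20-fold (log2 -2.85 ± 0.26, limma adjusted p = 0.00354), the smallest p of the 9 genes in this comparison. Hmga1 was at 4.10 and 3.96 in P0 progenitors and at 5.66 and 5.77 in E11.5 progenitors (probe at chr17:27700543-27700602, mm9, plus strand). It fell 3.21-fold (log2 -1.68 ± 0.18, limma adjusted p = 0.00647), the smallest fold among the 6 called.

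Arid3a, a DNA-binding protein of the AT-rich interaction domain family, was at -0.58 and -1.39 in P0 progenitors against 1.49 and 2.63 in E11.5 progenitors (probe at chr10:79417698-79417757, mm9, plus strand). It fell 8.27-fold (log2 -3.05 ± 0.44, limma adjusted p = 0.0147). Trim71, an NHL-domain protein that binds RNA and controls stem cell proliferation, was at 0.34 and 0.25 in P0 progenitors and at 1.43 and 1.02 in E11.5 progenitors (probe at chr9:114421669-114421728, mm9, minus strand). Its groups did not overlap, but the difference of -0.93 ± 0.26 did not pass (limma adjusted p = 0.100).

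Without P0 replicate 1, or without P0 replicate 2, 1 of the 6 calls was made (Hmga2), without E11.5 replicate 2 there were 3 (Arid3a, Hmga1 and Hmga2), and without E11.5 replicate 1 there were 5 (all but Igf2bp3). On the arrays of slide 1 alone, Igf2bp1 did not pass (limma adjusted p = 0.0665). Erythroid markers moved with the groups: their mean over 6 measured of 8 listed genes was -2.29 and -2.24 in P0 progenitors and 0.98 and -0.74 in E11.5 progenitors, 3 of the 6 being called lower. Tubule markers averaged -1.13 and -1.94 in P0 progenitors and -4.26 and -4.77 in E11.5 progenitors, with 3 of 6 called higher, and stromal markers averaged -1.26 and -1.23 in P0 progenitors and 0.08 and -0.11 in E11.5 progenitors, with 1 of 5 called lower. Of podocyte markers 1 of 4 was called higher, and of leukocyte markers 1 of 6 lower. The part of these cells in the result was not tested.

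**Figure D2:**
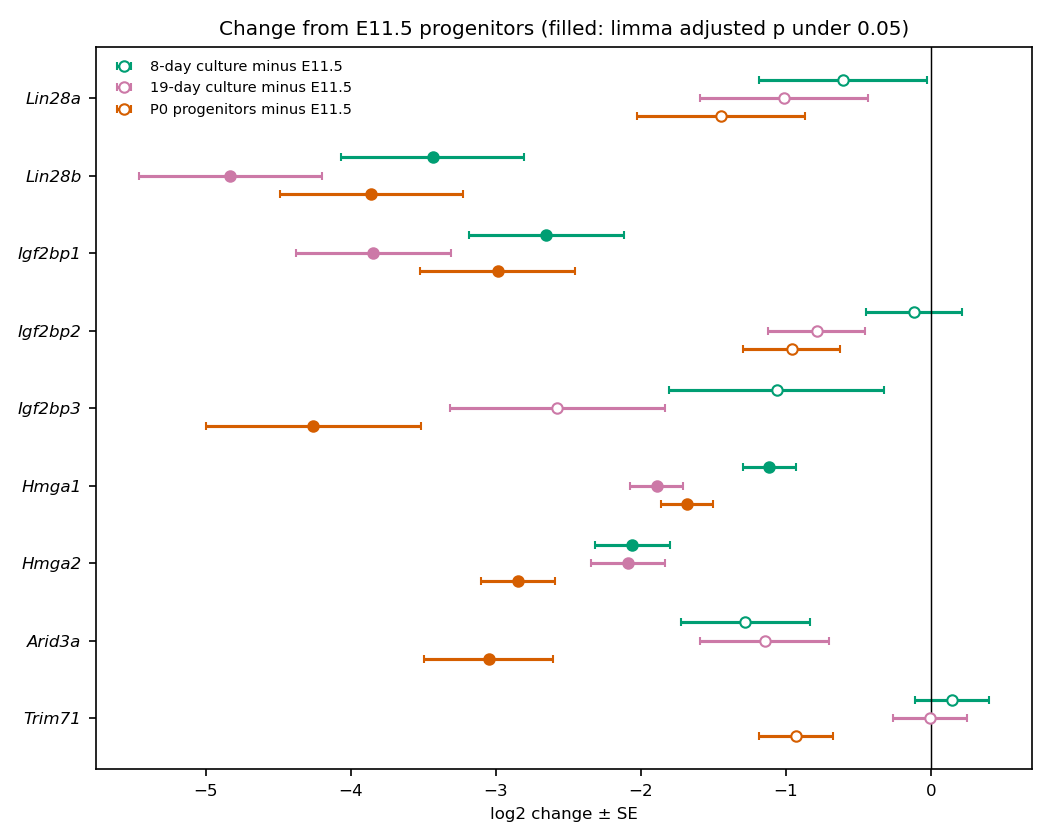
Log2 change (horizontal axis, ± SE) of each gene in 8-day culture, 19-day culture and P0 progenitors, each minus E11.5 progenitors (n = 2 arrays a group); filled points passed limma at an adjusted p under 0.05. Lin28b, Igf2bp1, Hmga1 and Hmga2 are filled in all 3 comparisons, the Lin28b points being fitted values of a gene not detected outside E11.5 progenitors, and Igf2bp3 and Arid3a in P0 progenitors alone.

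The cultures were set against the E11.5 progenitors from which they were started, to see how the programme stood after time in the dish. After 8 days, 4 of the 9 genes had fallen (Lin28b, Igf2bp1, Hmga1 and Hmga2), where 4.80% of all genes were called, 2.76% as higher and 2.04% as lower. After 19 days, 4 had fallen, and they were the same 4 genes, where 16.8% of all genes were called, 7.23% as higher and 9.59% as lower. Of the 8 genes detected on all arrays, 3 were called at each time, and their median log2 differences were -1.09 at 8 days and -1.52 at 19 days, against 0.02 and 0.0061 over all genes tested. These comparisons share the E11.5 arrays with each other and with the P0 comparison.

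Lin28b was at -6.01 and -4.44 in 8-day culture and at -6.60 and -6.65 in 19-day culture, on no array well above background, against -2.24 and -1.34 in E11.5 progenitors. It fell 5.50-fold at 8 days (fitted log2 -3.43 ± 0.63, limma adjusted p = 0.0295) and 7.76-fold at 19 days (fitted log2 -4.83 ± 0.63, limma adjusted p = 0.00303). These folds are approximate minimums, taken as for P0 progenitors. In 8-day replicate 2 the Lin28b signal (-4.44), though not well above background, exceeded that array's limit (-4.64) and was used instead. The fit without a filter gave adjusted p-values of 0.0349 at 8 days and 0.00330 at 19 days (limma), and after normexp background correction the fitted differences were -0.998 and -1.31. Detection was thus lost at the earlier of the culture times. Lin28a was detected on every culture array, at -2.67 and -2.03 in 8-day and -3.07 and -2.46 in 19-day culture, and its ranges overlapped that of E11.5 progenitors (-2.56 and -0.94).

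Igf2bp1 was at 1.78 and 1.42 in 8-day culture and at 0.63 and 0.18 in 19-day culture, both pairs below E11.5 progenitors (3.69 and 4.82). It fell 6.29-fold at 8 days (log2 -2.65 ± 0.53, limma adjusted p = 0.0378) and 14.4-fold at 19 days (log2 -3.85 ± 0.53, limma adjusted p = 0.00380). Igf2bp3 was at 1.56 and 1.29 in 8-day culture, below both E11.5 arrays (2.46 and 2.52), with a difference of -1.06 ± 0.74 that did not pass (limma adjusted p = 0.495). At 19 days its arrays disagreed, at 1.26 and -1.44, and the difference of -2.58 ± 0.74 had a limma adjusted p of 0.0537. Without 19-day replicate 1 the Igf2bp3 difference was -3.93, whereas replicate 1 itself (1.26) lay much nearer to the E11.5 arrays. The size of the difference thus depended on which 19-day array was kept. Igf2bp2 was at 3.41 and 3.10 in 8-day culture and at 2.70 and 2.47 in 19-day culture, against 2.94 and 3.80 in E11.5 progenitors. Its differences of -0.12 ± 0.33 and -0.79 ± 0.33 did not pass (limma adjusted p = 0.900 and 0.161).

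Hmga2 was at 2.46 and 3.07 in 8-day culture and at 2.70 and 2.77 in 19-day culture, against 4.87 and 4.78 in E11.5 progenitors. It fell 4.17-fold at 8 days (log2 -2.06 ± 0.26, limma adjusted p = 0.00941) and 4.25-fold at 19 days (log2 -2.09 ± 0.26, limma adjusted p = 0.00236), and the culture times overlapped. Hmga1 was at 4.80 and 4.40 in 8-day culture and at 3.66 and 3.99 in 19-day culture, against 5.66 and 5.77 in E11.5 progenitors. It fell 2.17-fold at 8 days (log2 -1.11 ± 0.18, limma adjusted p = 0.0223) and 3.71-fold at 19 days (log2 -1.89 ± 0.18, limma adjusted p = 0.000898).

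Arid3a was at 0.67 and 0.90 in 8-day and 1.03 and 0.80 in 19-day culture, below both E11.5 arrays (1.49 and 2.63). The differences of -1.28 ± 0.44 and -1.15 ± 0.44 did not pass (limma adjusted p = 0.160 and 0.129). Without E11.5 replicate 1 the 19-day difference was -1.72, but replicate 1 itself (1.49) lay nearer to the culture arrays than replicate 2 (2.63). The size of the Arid3a difference thus depended on which E11.5 array was kept. Trim71 was at 1.16 and 1.59 in 8-day and 1.32 and 1.12 in 19-day culture, against 1.43 and 1.02 in E11.5 progenitors. The groups overlapped, and 8-day replicate 2 alone lay above the E11.5 arrays. Its differences were 0.15 ± 0.26 and -0.01 ± 0.26 (limma adjusted p = 0.820 and 0.993).

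With slide as a block, 8-day replicate 1 alone was set against the E11.5 arrays, so that its p-values assume it varies like the arrays of the other groups, as do all those with a group of 1 array. Of the 4 genes called at 8 days, Hmga2 (log2 -2.36) and Lin28b (log2 -4.22) were called under it, while Igf2bp1 (log2 -2.47, limma adjusted p = 0.126) and Hmga1 (log2 -0.91, limma adjusted p = 0.0648) were not. At 19 days, Hmga1 (log2 -1.49), Hmga2 (log2 -2.70) and Lin28b (log2 -6.40) were called with the block and Igf2bp1 (log2 -3.48, limma adjusted p = 0.0990) was not. Leaving out 1 array left 1 call at 8 days without E11.5 replicate 2 (Hmga2) and 2 calls without each of the other 3 arrays. In a fit of the 8-day and E11.5 arrays alone, none of the 4 was called. The Lin28b values and calls under the slide block rest on culture signals not well above background. They give no size for its fall and no support beyond the main fit.

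Between the culture times, 1 of the 9 genes was lower at 19 than at 8 days, where 8.07% of all genes were called, 2.67% as higher and 5.40% as lower. After quantile normalization 46.6% of the genes called were higher, against 33.1% in the reported setting. Hmga1 was at 3.66 and 3.99 in 19-day culture and at 4.80 and 4.40 in 8-day culture, and it fell 1.71-fold (log2 -0.78 ± 0.18, limma adjusted p = 0.0434). This call was lost without 8-day replicate 1 (log2 -0.57), without 8-day replicate 2 (log2 -0.98), without 19-day replicate 1 (log2 -0.61) and with the slide block, which equals the 19-day arrays against 8-day replicate 2 on their slide (log2 -0.57, limma adjusted p = 0.142). Igf2bp3 had a difference of -1.51 ± 0.74 (limma adjusted p = 0.288), and without 19-day replicate 1 it was -2.86. For Igf2bp3, 19-day replicate 1 itself (1.26) lay just below the 8-day arrays (1.56 and 1.29). Hmga2 differed by -0.03 ± 0.26 (limma adjusted p = 0.968).

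Cell cycle genes moved with culture time. The mean level of 9 such genes, among them Mcm7, a subunit of the replicative helicase, was 2.77 and 2.62 in 8-day culture and 1.39 and 1.86 in 19-day culture, against 3.30 and 3.44 in E11.5 progenitors. Of the 9, 2 were called lower at 8 days and 7 at 19 days. Of 8 nephron progenitor markers, 2 were called lower at 8 days and 7 at 19 days than in E11.5 progenitors, and 0 higher. Stromal markers averaged 0.13 and -0.15 in 8-day and 2.33 and 2.19 in 19-day culture, against 0.08 and -0.11 in E11.5 progenitors. Of the 5, 2 were called higher and 1 lower at 8 days, and 3 higher and 1 lower at 19 days. Erythroid markers averaged -3.85 and -3.67 in 8-day and -4.18 and -4.26 in 19-day culture, against 0.98 and -0.74 in E11.5 progenitors, with 4 of 6 called lower at each time. The part of these in the results on the 9 genes was not tested.

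Cultures were also compared with P0 progenitors, cells that had developed in the embryo to birth. At 8 days the 8 genes detected in both had a higher mean in culture than in P0 progenitors, by a median of 0.84 on the log2 scale against 0.13 over all genes tested, and limma called 0 of the 9 after adjustment. Of all genes, 3.97% were called, 2.41% as higher and 1.57% as lower. An unadjusted limma p under 0.05 was reached by 6 of the 9 genes and by 20.3% of all genes. After quantile normalization 44.4% of the genes called were higher, against 60.6% in the reported setting. At 19 days, 1 of the 9 was called, Arid3a, which was higher, where 12.7% of all genes were called, 5.78% as higher and 6.93% as lower. Other cells' markers and cell cycle genes differed too. At 8 days 4 of 6 tubule, 3 of 8 nephron progenitor, 2 of 6 erythroid and 1 of 9 cell cycle genes were lower in culture than in P0 progenitors, and of 5 stromal markers 2 were higher and 1 lower. At 19 days 4 of 6 tubule, 5 of 8 nephron progenitor, 2 of 6 erythroid and 7 of 9 cell cycle genes were lower, and of 5 stromal markers 4 were higher and 1 lower. Their part in the results was not tested.

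Igf2bp3 showed the widest gap at 8 days, at 1.56 and 1.29 in 8-day culture against -2.03 and -1.52 in P0 progenitors. The difference of 3.19 ± 0.74 missed the threshold (limma adjusted p = 0.0612). This SE, like that of Igf2bp3 in every comparison of the main fit, pools the spread of all 5 groups. The SD between Igf2bp3 arrays was 0.19 in 8-day culture, 0.36 in P0 progenitors and 1.91 in 19-day culture. In E11.5 progenitors it was 0.04 and in P0 non-progenitors 0.02. Among the arrays of slide 1 alone, 8-day replicate 1, a single array, was higher than the P0 progenitors by 3.33 (limma adjusted p = 0.0232), and with slide as a block in the fit of all arrays the same difference had an adjusted p of 0.156. At 19 days Igf2bp3 was at 1.26 and -1.44, above both P0 arrays on both but by 1.68 ± 0.74 on average (limma adjusted p = 0.182). Without 19-day replicate 2 that difference was 3.03, whereas replicate 2 itself (-1.44) lay close to the higher P0 array (-1.52). The size of the difference thus depended on which 19-day array was kept.

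Arid3a was at 0.67 and 0.90 in 8-day culture and at 1.03 and 0.80 in 19-day culture, all 4 arrays above P0 progenitors (-0.58 and -1.39). It was 3.74-fold higher at 19 days (log2 1.90 ± 0.44, limma adjusted p = 0.0325), and at 8 days the difference of 1.77 ± 0.44 did not pass (limma adjusted p = 0.0759). The 19-day call was lost without P0 replicate 1 (log2 2.31), without P0 replicate 2 (log2 1.49), without 19-day replicate 1 (log2 1.79), without 19-day replicate 2 (log2 2.02) and with the slide block (log2 1.67, limma adjusted p = 0.337). Trim71 was above P0 progenitors (0.34 and 0.25) on all 4 culture arrays, by 1.08 ± 0.26 at 8 days and 0.92 ± 0.26 at 19 days, neither of which passed (limma adjusted p = 0.0647 and 0.0558).

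Hmga2 was above P0 progenitors (2.14 and 1.82) on all 4 culture arrays, by 0.79 ± 0.26 at 8 days and 0.76 ± 0.26 at 19 days (limma adjusted p = 0.142 and 0.0972). Hmga1 was above P0 progenitors by 0.57 ± 0.18 at 8 days (limma adjusted p = 0.138) and differed by -0.21 ± 0.18 at 19 days (limma adjusted p = 0.491). Lin28b was not well above background in either culture or in P0 progenitors, so that no fold is given. Igf2bp1 differed by 0.33 ± 0.53 at 8 days and by -0.86 ± 0.53 at 19 days, Igf2bp2 by 0.84 ± 0.33 and 0.17 ± 0.33, and Lin28a by 0.84 ± 0.58 and 0.44 ± 0.58, none of which passed.

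**Figure D3:**
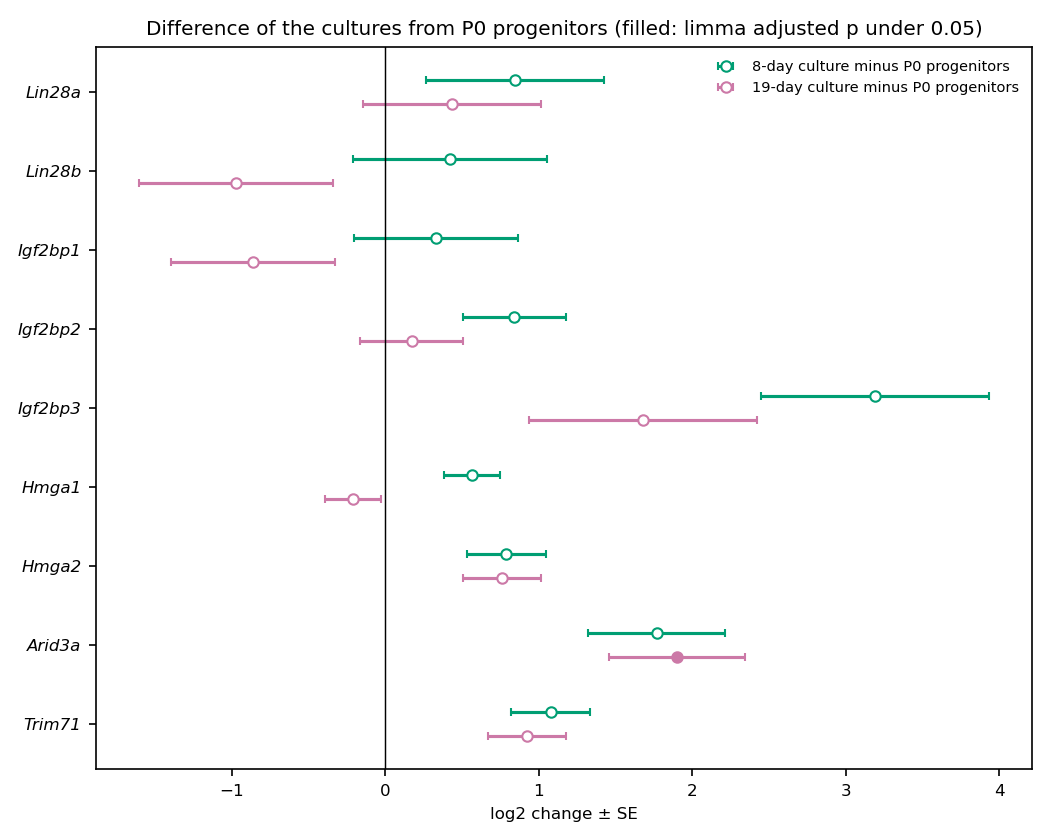
Log2 difference (horizontal axis, ± SE) of each gene in 8-day and in 19-day culture, minus P0 progenitors (n = 2 arrays a group); filled points passed limma at an adjusted p under 0.05. The 8-day points of the 8 detected genes lie above 0 and none is filled, Lin28b is not well above background in any of the groups drawn, and Arid3a at 19 days is the one filled point.

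Within the newborn kidney, P0 progenitors were compared with the GFP-negative P0 non-progenitors. Hmga2 was the 1 gene of the 9 that was called, where 8.38% of all genes were called, 4.23% as higher and 4.15% as lower. After quantile normalization 33.7% of the genes called were higher, against 50.5% in the reported setting. Hmga2 was at 2.14 and 1.82 in P0 progenitors and at -0.66 and -0.27 in P0 non-progenitors. It was 5.43-fold higher in the progenitors (log2 2.44 ± 0.26, limma adjusted p = 0.00248), and the call was made without each of the 4 arrays in turn.

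Other members pointed in both directions. Arid3a was at -0.58 and -1.39 in P0 progenitors against 1.08 and 0.52 in P0 non-progenitors, a difference of -1.78 ± 0.44 that did not pass (limma adjusted p = 0.0524). Igf2bp3 was at -2.03 and -1.52 in P0 progenitors against -0.38 and -0.41 in P0 non-progenitors (log2 -1.38 ± 0.74, limma adjusted p = 0.352), and on the arrays of slide 1 alone its adjusted p was 0.0404. Igf2bp1 was at 1.76 and 0.77 in P0 progenitors against -0.70 and 0.41 in P0 non-progenitors (log2 1.41 ± 0.53, limma adjusted p = 0.175), with no overlap. Igf2bp2 was at 2.67 and 2.15 in P0 progenitors against 1.93 and 1.48 in P0 non-progenitors (log2 0.70 ± 0.33, limma adjusted p = 0.284). Hmga1 overlapped between the groups (4.10 and 3.96 in P0 progenitors, 4.08 and 4.27 in P0 non-progenitors), as did Lin28a (-3.45 and -2.95 in P0 progenitors, -3.15 and -2.76 in P0 non-progenitors). Lin28b was not well above background in either, and Trim71 was at 0.34 and 0.25 in P0 progenitors against 0.53 and 0.75 in P0 non-progenitors (limma adjusted p = 0.527). Tubule markers, which the GFP-negative cells include, averaged -1.13 and -1.94 in P0 progenitors and 3.66 and 3.69 in P0 non-progenitors, 6 of 6 being called lower in the progenitors. Also lower were 6 of 6 endothelial, 3 of 4 podocyte, 3 of 5 stromal and 1 of 4 non-renal mesoderm and muscle markers. So were 3 of 6 leukocyte, 3 of 6 erythroid and 3 of 6 ureteric bud and collecting duct markers. Higher in the progenitors were 5 of 8 nephron progenitor markers and 3 of 9 cell cycle genes. The part of this mixture and of the cell cycle in the values was not tested.

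The order of the groups differed from gene to gene. E11.5 progenitors were highest for 8 of the 9 genes by their mean. For Igf2bp1, Igf2bp3, Hmga1, Hmga2 and Arid3a, both E11.5 arrays lay above every array of the next group in order. The same held for 9.36% of 26246 genes. Lin28b is left out of this set, because it passed the filter on dim probes through its high E11.5 arrays alone. For Lin28a and Igf2bp2 the E11.5 arrays overlapped those of 8-day culture, and for Trim71 the means of 8-day culture, E11.5 progenitors and 19-day culture (1.37, 1.23 and 1.22) came from overlapping arrays. P0 progenitors were lowest for Igf2bp3, Arid3a and Trim71, and P0 non-progenitors for Igf2bp2 and Hmga2, without overlap with the next group up. The lowest means of Lin28a (P0 progenitors), Igf2bp1 (P0 non-progenitors) and Hmga1 (19-day culture) overlapped the next group, and Lin28b had no order outside E11.5 progenitors, since it was not well above background there. Over the 10 arrays, which share slides and groups, the correlation between 2 members ranged between 0.279 (Lin28b with Trim71) and 0.909 (Lin28b with Hmga1), with a median of 0.640 over 36 pairs, given as a description. Both extremes involve Lin28b, whose values outside E11.5 progenitors were not well above background.

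Of the 9 genes, 6 had more than 1 probe, and probes of a gene were compared in a fit of 39818 probes. In P0 progenitors all 16 probes had a lower mean than in E11.5 progenitors and 10 were called lower, where 3.47% of all probes were called. The 10 include both Lin28b probes, which passed the filter on dim probes through E11.5 progenitors alone. The second Lin28b probe, at chr10:45096468-45096527 near the other end of the transcript, was at -6.50 and -6.28 in P0 progenitors, neither well above background, and at -2.59 and -3.23 in E11.5 progenitors. Set against the same array limits, it was 2.73-fold lower in P0 progenitors, an approximate minimum (fitted log2 -3.48 ± 0.46, limma adjusted p = 0.0123). This probe too entered the fit through E11.5 progenitors alone, so that its p is not separate support. A probe fit without the filter was not run. The Hmga2 probe over the let-7 match shown above was at 1.13 and 0.74 in P0 progenitors and at 3.81 and 4.15 in E11.5 progenitors (log2 -3.04 ± 0.48, limma adjusted p = 0.0212). For Hmga2 the result differed from that of the first probe (log2 -2.85) by less than the SE of either.

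The 3 Hmga1 probes did not behave alike. The probe at chr17:27696588-27696647 gave 1.51 and 1.55 in P0 progenitors against 3.60 and 4.04 in E11.5 progenitors (log2 -2.29 ± 0.24, limma adjusted p = 0.00659). The probe at chr17:27693913-27693973, annotated to another Hmga1 transcript, gave -0.45 and -0.37 in P0 progenitors against 0.02 and -0.07 in E11.5 progenitors (log2 -0.39 ± 0.27, limma adjusted p = 0.502). It was also the Hmga1 probe that did not pass in 8-day (log2 -0.17 ± 0.27) and 19-day culture (log2 -0.08 ± 0.27) against E11.5 progenitors. For Trim71, the second probe had a wide spread, at -0.72 and -3.79 in P0 progenitors against 0.08 and 0.40 in E11.5 progenitors (log2 -2.49 ± 0.93, limma adjusted p = 0.209), and in 19-day culture its difference from E11.5 progenitors was -1.65 ± 0.93 where that of the first probe was -0.01 ± 0.26. Both Arid3a probes were called higher in 19-day culture than in P0 progenitors, and both Hmga2 probes were higher in P0 progenitors when set against P0 non-progenitors.

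**Figure D4:**
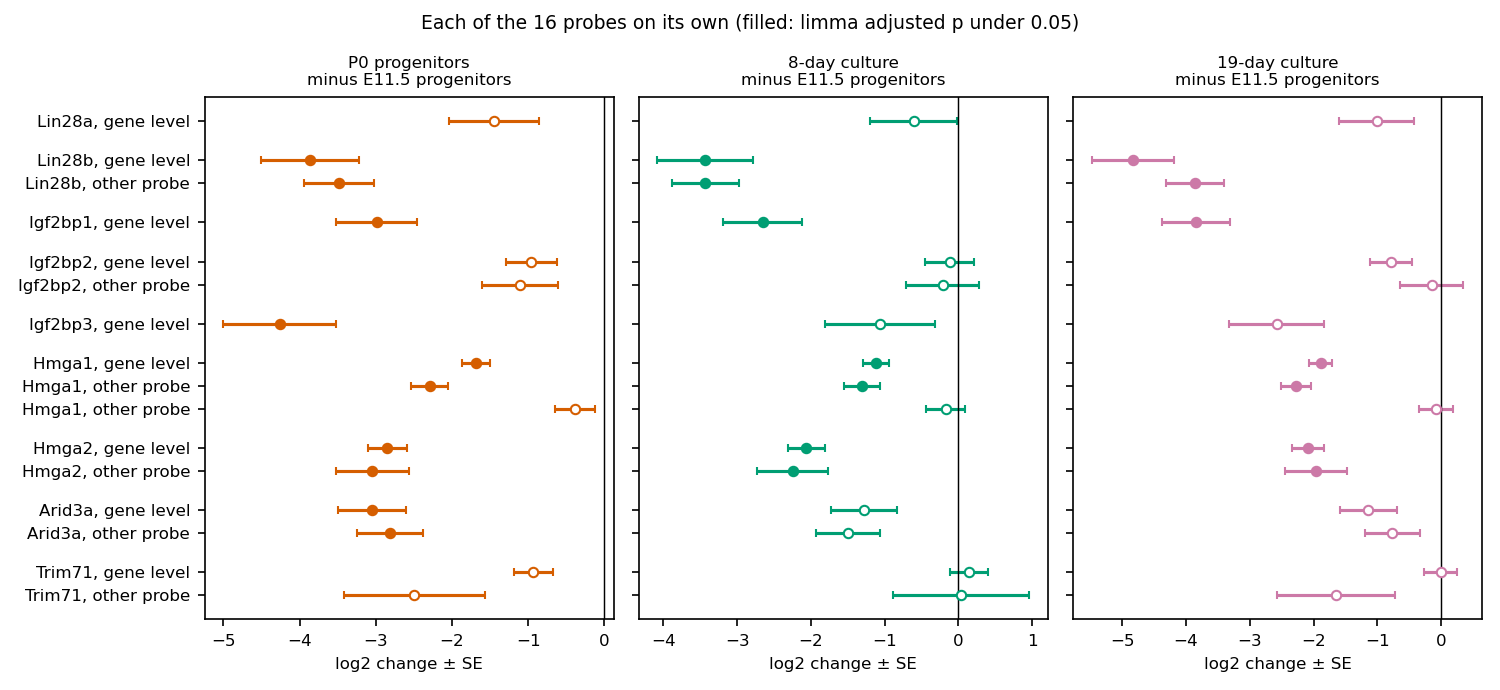
Log2 change (horizontal axis, ± SE) of each of the 16 probes in P0 progenitors, 8-day culture and 19-day culture, each minus E11.5 progenitors (n = 2 arrays a group), with the probe that stands for the gene above its other probes; filled points passed limma over all probes. Paired probes of Lin28b and Hmga2 are filled in every panel, and 1 of the 3 Hmga1 probes lies near 0 in each. The Lin28b probes were detected in E11.5 progenitors alone and entered the fit through that group.

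The machinery that LIN28 acts through was described by a list of 14 genes of let-7 processing, all measured. Counts in this and the lists that follow stand beside the shares of all genes given above, 2.03% higher and 1.92% lower for P0, 2.76% and 2.04% for 8-day culture and 7.23% and 9.59% for 19-day culture, each against E11.5 progenitors. In P0 progenitors against E11.5 progenitors, 1 was called higher and 1 lower, with a median of -0.29. Tarbp2, which encodes a partner of Dicer, fell 3.44-fold (log2 -1.78 ± 0.27, limma adjusted p = 0.0172), and Msi2, an RNA-binding protein of the Musashi family, rose 2.43-fold (log2 1.28 ± 0.24, limma adjusted p = 0.0323). Trim25 and Khsrp differed by -0.18 and -0.41 and did not pass. In 19-day culture, 8 of 14 were lower than in E11.5 progenitors, with a median of -1.08. They included Tut4, which adds uridines to let-7 precursors (log2 -1.86 ± 0.32, limma adjusted p = 0.00860), Dis3l2, which degrades the tailed precursors (log2 -2.46 ± 0.30, limma adjusted p = 0.00220), and Hnrnpa1 (log2 -1.72 ± 0.11, limma adjusted p = 0.00026). At 8 days 1 was lower, Tarbp2 (log2 -1.73 ± 0.27, limma adjusted p = 0.0200).

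Known let-7 targets other than the 9 genes moved both ways. Of 29 measured, 2 were higher and 2 lower in P0 than in E11.5 progenitors, with a median of -0.32. Fignl2, a relative of the AAA protein fidgetin, fell 6.68-fold (log2 -2.74 ± 0.37, limma adjusted p = 0.0120) and Cdc34, a ubiquitin-conjugating enzyme, fell 4.75-fold (log2 -2.25 ± 0.36, limma adjusted p = 0.0200). Ccnd1, which encodes cyclin D1, rose 6.65-fold (log2 2.73 ± 0.29, limma adjusted p = 0.00642), and Lrig3 rose 3.01-fold (limma adjusted p = 0.0435). At 8 days 5 were lower than in E11.5 progenitors, Fignl2 (log2 -2.03 ± 0.37), Cdc34 (log2 -2.03 ± 0.36), Ccnd1 (log2 -1.66 ± 0.29) and Tgfbr1 (log2 -1.55 ± 0.26) among them. At 19 days 13 were lower and 3 higher, the largest rise being that of Thbs1, an extracellular matrix glycoprotein, at 36.8-fold (log2 5.20 ± 0.48, limma adjusted p = 0.000791). Mycn, a transcription factor of progenitor cells, was at 3.05 in 19-day culture against 4.79 in E11.5 progenitors (log2 -1.74 ± 0.26, limma adjusted p = 0.00469) and did not pass in P0 progenitors (log2 0.91 ± 0.26, limma adjusted p = 0.108).

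Transcripts that IGF2BP proteins bind, 9 in the list, had 1 member called lower in P0 against E11.5 progenitors (Actb, log2 -1.07 ± 0.16, limma adjusted p = 0.0147). Igf2, the growth factor for which the family is named, averaged 5.52 in P0 and 5.81 in E11.5 progenitors (log2 -0.28 ± 0.26, limma adjusted p = 0.614). H19, the noncoding RNA of the same imprinted locus, averaged 8.07 in P0 and 8.32 in E11.5 progenitors (log2 -0.25 ± 0.27, limma adjusted p = 0.663). At 19 days Igf2 fell 13.4-fold (log2 -3.75 ± 0.26, limma adjusted p = 0.000339) and H19 fell 3.55-fold (log2 -1.83 ± 0.27, limma adjusted p = 0.00444) against E11.5 progenitors, with Myc the remaining gene of the 3 called. At 8 days H19 differed from E11.5 progenitors by -0.63 ± 0.27 and Actb by -0.27 ± 0.16, and neither passed.

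Fetal growth genes, 13 in the list and with Igf2, H19 and Mycn shared with the lists above, had 3 called lower in P0 against E11.5 progenitors: Dlk1 (log2 -3.61 ± 0.45, 12.2-fold, limma adjusted p = 0.00936), Peg3 (log2 -1.27 ± 0.24) and Sox11 (log2 -1.33 ± 0.26). At 8 days Peg3 was lower (log2 -1.99 ± 0.24) and Plagl1, an imprinted zinc finger gene, was higher (log2 2.38 ± 0.35, limma adjusted p = 0.0153) than in E11.5 progenitors. At 19 days 12 of the 13 were lower, with a median of -2.76. The exception was Plagl1 (log2 0.18 ± 0.35, limma adjusted p = 0.776). Among the 12 were Sox11 (log2 -3.24 ± 0.26) and Ezh2, the catalytic subunit of Polycomb repressive complex PRC2 (log2 -3.53 ± 0.33, limma adjusted p = 0.00085).

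Family relatives of the 9 genes, 17 in the list, included Hmgn1, a nucleosome-binding protein, which was lower in P0 than in E11.5 progenitors (log2 -0.70 ± 0.06, limma adjusted p = 0.00290). At 8 days Hmgn1 alone was lower than in E11.5 progenitors (log2 -0.61 ± 0.06). At 19 days 10 were lower and 1 higher, with Hmgb3, a high mobility group box protein, 14.0-fold lower (log2 -3.80 ± 0.30, limma adjusted p = 0.000473).

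Promoters, taken as the 250 bases before and 50 bases after the start site in RefSeq (GRCm38.p6), were matched for 7 of the 9 genes, with 8 start sites. The E-box CACGTG, searched on both strands, which read the same, was present once in the Lin28b promoter and at 2 places in that of Igf2bp3. It was not found in the promoter windows of Lin28a, Igf2bp2, Hmga1, Hmga2 and Trim71. Lin28b and Igf2bp3 were called lower in P0 than in E11.5 progenitors, and so were Hmga1 and Hmga2. Of 32851 promoters of this length, 7.15% held the motif and 0.594% held it at least 2 times. The CCAAT box (CCAAT) and the GC box (GGGCGG) were searched likewise and were in 37.4% and 35.7% of promoters. CCAAT was found for Lin28b, Igf2bp3 and Trim71, and GGGCGG for Lin28a, Igf2bp2, Hmga1, Hmga2 and Trim71. The E-box was picked for display after the matches were seen. The promoters with a match are shown with the motif in capitals, 49 bases before the start site in Lin28b, and 23 bases before and 5 bases after it in Igf2bp3.
Lin28b promoter, chr10:45470152-45470451, minus strand: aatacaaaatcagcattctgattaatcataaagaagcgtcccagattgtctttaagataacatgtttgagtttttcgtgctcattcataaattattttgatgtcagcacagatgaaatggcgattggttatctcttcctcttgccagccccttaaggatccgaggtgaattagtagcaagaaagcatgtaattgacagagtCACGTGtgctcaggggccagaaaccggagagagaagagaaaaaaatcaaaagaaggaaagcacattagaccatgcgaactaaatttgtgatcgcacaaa
Igf2bp3 promoter, chr6:49214905-49215204, minus strand: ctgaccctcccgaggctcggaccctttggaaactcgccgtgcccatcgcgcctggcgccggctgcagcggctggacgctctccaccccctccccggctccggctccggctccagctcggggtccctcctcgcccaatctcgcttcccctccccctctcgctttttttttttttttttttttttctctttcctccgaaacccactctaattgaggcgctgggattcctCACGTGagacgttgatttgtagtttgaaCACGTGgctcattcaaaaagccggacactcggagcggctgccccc
A match is a description of these letters and not a bound site, and a missing match says only that the letters are not in this window.

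Genes whose pattern over the 10 arrays was most like that of the 9 were ranked by Pearson correlation, as a description without a test, since the arrays share groups and slides. With the mean of the 9 genes, each centred and scaled, the highest among named genes were Crmp1 (0.960), Igdcc3 (0.952), Wdr34 (0.948), Pirb (0.945), Pbld1 (0.940) and Zfp408 (0.940), and 4 of the 10 highest had no gene symbol. Crmp1 averaged -4.22 in P0 progenitors, -4.22 in P0 non-progenitors, 1.55 in E11.5 progenitors, -1.94 in 8-day and -2.02 in 19-day culture. A high correlation says nothing of the size of a difference. Pirb averaged 7.98 in P0 and 8.55 in E11.5 progenitors, and Zfp408 averaged 5.37 and 5.93. Closest to Hmga2 alone was a probe without a gene symbol (0.999), and the closest with one was Ppid (0.977). Closest to Lin28b alone were Ptp4a1 (0.963), Taf7l (0.962), Snapin (0.958) and Mei4 (0.955). Outside E11.5 progenitors the Lin28b values were not well above background, so that this ranking rests mainly on its E11.5 arrays.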

How the data were processed

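The deposited values are intensities of single-colour Agilent arrays, per the file headers, from the extraction software (Agilent Feature Extraction 11.5.1.1, per the submitters' processing notes), background-subtracted within an array and not scaled between arrays. Control and outlier spots were left out. From log2 intensities the 75th percentile of that array was subtracted, and spots of 1 probe were averaged. Names and mm9 positions came from an E11.5 file, because 62 names in the file of P0 replicate 2, which holds 3 significant digits, had become dates. A gene was its probe with the highest mean, and was tested when both arrays of 1 or more groups showed a probe well above background (26252 genes).

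Group means over all 10 arrays were estimated with limma 3.58.1 in R 4.3.3, reading files with the data.table package (version 1.17.8), with an intensity trend (5 residual degrees of freedom, 2.49 prior). Two-sided p-values were adjusted by Benjamini-Hochberg, at 0.05, over all genes in each of 7 comparisons. An exact permutation test of 2 against 2 arrays cannot go below p = 0.333. The procedure was tested on simulated data with independent noise, of the same spread in all groups for a given gene and without slide effects. The simulation therefore does not cover the wider E11.5 spread or the slides of these data. Alternatives were quantile normalization, normexp with an offset of 50, 2 filters, the mean of a gene's probes, blocks for replicate number and slide, the compared groups alone and leaving out each array. Fits to 1 slide were added after seeing the data.

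All 9 genes were named in each comparison. Of each list, up to 4 called genes by lowest adjusted p and up to 2 that did not pass, by highest level, could be named, with the genes whose pattern was most like that of the 9, of Hmga2 and of Lin28b. The result of 1 gene of the lists is not reported here. Members, lists and markers were chosen with earlier results of these data known. Same-numbered replicates did not deviate together over all genes tested (correlation between -0.0137 and 0.0210). This cannot exclude that the numbers pair samples, because pairing that moved few genes would not show in it. The labels do not say, and the main fit used no pairing. The number of arrays limits the precision.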

Additional observations from a re-analysis of the deposited data

How the results depend on the processing

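With 2 arrays a group, a gene that did not pass may still have changed by several fold. Over single genes, the alternatives other than leaving out single arrays, the fits to 1 slide among them, gave 491 values with the same direction and side of the threshold, 25 no longer past it, 6 newly past it and 20 with another sign, all of the last for differences that had not passed. The number of the 9 genes called moved by over 1.5 times as follows. For 19-day against 8-day culture it was 0 in place of 1 under quantile normalization, normexp, no filter, the mean of probes, the replicate block, the slide block, the compared groups alone and slide 2 alone. For 19-day culture against P0 progenitors it was 0 in place of 1 under the replicate block, the slide block and the compared groups alone. For 8-day culture against E11.5 progenitors it was 2 under the slide block and 0 in the compared groups alone, and for P0 against E11.5 progenitors it was 3 in the compared groups alone. It was 1 in place of 0 (Igf2bp3) for 8-day culture against P0 progenitors in the compared groups alone and on slide 1 alone. For P0 progenitors against P0 non-progenitors it was 2 under the mean of probes (Arid3a added) and on slide 1 alone (Igf2bp3 added). Leaving out 1 array gave 1 to 5 calls for P0 and 1 to 2 for 8-day against E11.5, 4 to 5 for 19-day against E11.5, 0 to 1 for 19-day against 8-day culture and for 19-day culture against P0, 0 to 0 for 8-day culture against P0 and 1 to 1 for P0 progenitors against P0 non-progenitors. The cause was not tested, beyond the fewer arrays in some fits.

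The labels do not say whether replicate numbers pair the samples. The replicate block gave 5 calls for P0 against E11.5 progenitors (Igf2bp1 lost), 3 for 8-day culture (Igf2bp1 lost) and 4 for 19-day culture. Igf2bp1 was also lost in P0 progenitors and in 8-day culture on slide 1 alone (5 and 3 calls against E11.5 progenitors) and in 19-day culture under the slide block (3 calls). Lin28b could not be tested with the filter on all arrays, since it was well above background in E11.5 progenitors alone.

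Signs of log2 differences that turned were these. For 19-day against 8-day culture, Hmga2 was 0.0098 (quantile), 0.030 (normexp) and 0.13 (mean of probes). For 19-day culture against E11.5, Trim71 was 0.10 (quantile) and 0.080 (normexp). For 19-day culture against P0, Hmga1 was 0.038 (mean of probes) and 0.20 (slide block), and Lin28a -0.20 (slide block). For 8-day culture against E11.5, Igf2bp2 was 0.011 (quantile) and 0.042 (slide block and slide 1), and Trim71 -0.068 (slide block and slide 1). For 8-day culture against P0, Lin28b was -0.36 (slide block and slide 1). For P0 progenitors against P0 non-progenitors, Lin28a was 0.035 (normexp), Lin28b 0.033 (quantile), 0.062 (normexp) and 0.11 (mean of probes), and Trim71 0.42 (mean of probes). Leaving out 1 array gave ranges that span 0. They were -0.33 to 0.28 (Hmga2) and -0.37 to 0.062 (Trim71) for 19-day against 8-day culture, -0.21 to 0.20 (Trim71) for 19-day culture against E11.5 and -0.086 to 0.43 (Igf2bp2) for 19-day culture against P0. They were -0.55 to 0.31 (Igf2bp2), -1.42 to 0.21 (Lin28a) and -0.068 to 0.36 (Trim71) for 8-day culture against E11.5, and -0.16 to 0.83 (Igf2bp1) and -0.36 to 1.21 (Lin28b) for 8-day culture against P0. For P0 progenitors against P0 non-progenitors they were -0.49 to 0.0035 (Lin28a) and -0.46 to 0.38 (Lin28b). Among all genes, 50.5% of the calls between P0 progenitors and P0 non-progenitors were higher in the progenitors, and 68.0% with the filter on all arrays.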
